A study of Mus musculus with 72 samples.

Results

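Serotonin neurons of the dorsal raphe (DR) that scored highest for a set of 7 transcripts, *Vim*, *Sox14*, *Prkcq*, *Rbms3*, *Fam19a2*, *Sema6a* and *Vstm2l*, are described here and called the Sox14 Vim Prkcq neurons. They are 90 of the 2350 single cells (3.83%) in the 10X droplet table, selected by ranking all cells on the mean z of these transcripts and keeping the top 90. For each cell, counts of unique molecular identifiers (UMIs) were scaled to 10000, log-transformed and converted to z over all cells. The members had a mean z between 1.662 and 3.19 with a median of 2.08, and the other 2260 cells had a median of −0.27. The first cell outside the set scored 1.659, and 13 members and 11 other cells lay within 0.1 of the lowest member, so the limit falls within a continuous range of scores and not in a gap. Because these transcripts chose the cells, their levels are given only as a description and nothing is claimed from them.

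The cells came from 2 pooled 10X runs of the full DR, sorted for EGFP. All animals carried Pet1::Flpe+/-, a Flpe recombinase driven by regulatory sequence of *Fev* (Pet1), the transcription factor that defines the serotonergic lineage. Run 1 was from mice with the genotype Pet1::Flpe+/-; hM3Dq+/+ (a designer receptor allele) at a mean age of postnatal day 65.5, and run 2 from mice that carried En1::cre+/-, Pet1::Flpe+/- and the dual reporter RC::FrePe+/- at a mean age of postnatal day 59, in which labelling also requires a history of *En1*, a gene of the midbrain and anterior hindbrain. In addition, 70 cells were sorted by hand in 8 groups from dissected subregions, from mice carrying Pet1::Flpe+/-, RC::FrePe+/- and a Cre allele of Sert (*Slc6a4*), P2ry1, Npy2r or Crh, at postnatal day 62 to 119. Animals were pooled and no cell carries an animal, so the 10X table counts as 1 sample. Groups of cells were not tested against each other, and every interval below is an exact 95% interval that covers counting error only.

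Serotonin neurons make serotonin from tryptophan through *Tph2* and *Ddc*, load it into vesicles through *Slc18a2* and take it back up through *Slc6a4*. Many also carry genes of a second transmitter system, either *Gad2* for GABA synthesis or *Slc17a8* (VGLUT3) for vesicular glutamate, and within the DR these tend to occupy dorsal and ventral or caudal territories, respectively. Among the genes that chose the cells, *Sox14* encodes an HMG-box transcription factor, *Vim* an intermediate filament best known from glia and progenitors, *Prkcq* the theta isoform of protein kinase C, and *Sema6a* a transmembrane axon guidance molecule.

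The 5073306 UMIs of the members give the precision of each level. Members and other cells were alike in depth, with medians of 58495.5 and 59810.5 UMIs per cell (15723 to 93350 and 12320 to 134079), medians of 7667 and 7732 detected genes, and a median mitochondrial share of 6.06% and 6.43%. Barcode endings divide the table into barcode sets 1 and 2, which share 0 barcodes, and which run each ending stands for is not given in the sources used here. Members made up 38 of 869 cells of set 1 (4.37%, exact binomial interval 3.11 to 5.95) and 52 of 1481 cells of set 2 (3.51%, 2.63 to 4.58), so the intervals of the shares overlap. Sex-linked transcripts also separate with these sets, and set, sex and genotype cannot be told apart. Scrublet called 14 doublets in the table (0.596%), of which 0 were members.

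The serotonergic programme, which the score did not use, is given first. All cells were sorted for EGFP in the Pet1 lineage and the authors removed cells with low *Fev*, so this programme is no independent check of the label. All 13 genes of serotonin synthesis, transport and breakdown were expressed highly enough to be compared, and 12 of them lay within 2-fold of the other cells. *Tph2* was at 2645 CPM (UMIs of the gene scaled to 1000000 UMIs in all; 2600.5 to 2690.2) in the members and 2847 CPM in the other cells, *Slc6a4* at 2244 and 2226 CPM, and *Ddc* at 1182 and 1095 CPM. *Slc18a2* was at 3161 and 2323 CPM, and *Fev* itself at 419.6 and 332 CPM. The members therefore carried serotonergic transcripts near the level of the table as a whole. The exception was *Maob*, which encodes a monoamine oxidase of the outer mitochondrial membrane, at 167 CPM (156 to 179) in the members and 519 CPM elsewhere. Of the 7 serotonergic and regional identity factors that could be compared, 0 differed by 2-fold, with *Gata2* at 180.4 and 111 CPM and *Gata3* at 133 and 209 CPM.

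The genes that chose the cells were unevenly shared among the members. *Vim* was detected in 84 of 90 cells, with a median of 89.5 CPM and a highest value of 349.7 CPM, and *Sox14* in 85 of 90, with a median of 54.1 CPM and a highest value of 157 CPM. *Prkcq* was detected in 89, and *Rbms3*, *Fam19a2*, *Sema6a* and *Vstm2l* in all 90. Dropping 1 gene from the score and choosing 90 cells again kept between 76 (without *Vim*) and 88 (without *Fam19a2*) of the members, and 70 were kept when each cell was thinned to 20000 UMIs.

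Because *Vim* is also a transcript of glia, tanycytes and vessels, lists of markers of other cell types were summed in the members. Markers of astrocytes (7 genes in the table) summed to 5.91 CPM in the members and 38.6 CPM in other cells, with at most 44.0 CPM in a single member and 1674 CPM in a single other cell, and *Agt* was at 0. Those of ependymal cells and tanycytes (6 genes) summed to 4.53 and 13.8 CPM, with single cells reaching 52.5 and 272 CPM and *Nes* at 0. For endothelial cells and pericytes (7 genes) the sums were 0.197 and 3.40 CPM, with *Cldn5*, *Pecam1*, *Flt1*, *Kdr*, *Rgs5* and *Cspg4* at 0, and for microglia (6 genes) they were 0.394 and 2.15 CPM, with 5 genes including *Cx3cr1* and *P2ry12* at 0. Oligodendrocyte markers (7 genes) summed to 25.4 and 32.0 CPM, mostly from *Mbp* at 16.4 and 22.3 CPM. Dopamine neuron, blood, fibroblast and glutamate neuron markers each summed to below 1 CPM in the members, and those of other GABA neurons (8 genes) to 4.53 and 31.2 CPM. The sums of the 10 lists were lower in the members, but some leaned on a single gene. *Dynlrb2* was at 1.77 and 11.3 CPM in the ependymal and tanycyte list, and *S100b* at 2.76 and 20.6 CPM in the astrocyte list. Sums without *Dynlrb2* or *S100b* were not made, so lower levels of the remaining markers are not shown. For other GABA neurons the lower sum rested on *Sst*, at 29.2 CPM in the other cells. Without *Sst*, a setting added after seeing the data, that sum was 4.34 CPM in the members and 2.02 CPM elsewhere, in the members mostly from *Slc32a1* (2.76 CPM), with 1 member reaching 256 CPM over the whole list.

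**Figure D1:**
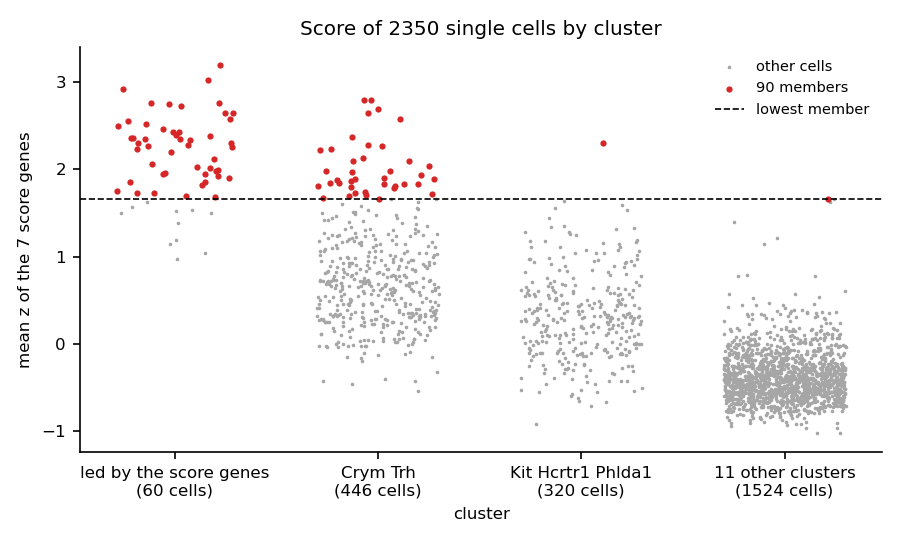
Mean z of the 7 score genes in each of the 2350 cells (points), by cluster, with the 90 members in red and the lowest member (1.662) as a dashed line. The members fall mainly in the 60-cell cluster led by the score genes (49 cells) and the upper edge of the 446-cell Crym Trh cluster (39 cells).

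Clustering of all cells on exact principal components (14 clusters) placed the members in 2 main places. A cluster of 60 cells, led by the score genes, held 49 members (54.4%, 43.6 to 65.0), and a cluster of 446 cells marked by *Crym* and *Trh* held 39 (43.3%, 32.9 to 54.2). One member lay in the 320-cell cluster marked by *Kit*, *Hcrtr1* and *Phlda1* and 1 in a cluster of 100 cells. The members filled 81.7% of the first cluster and 8.74% of the second. Where this border falls depended on the random start of the clustering: over 9 runs with an approximate principal component analysis, 4 gave a cluster of 60 cells with 49 members and 5, among them the run with default seeds, gave a cluster of 145 cells with 75 members. Since the clusters were built from the same counts as the score, these shares describe the cells and test nothing.

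Transcripts outside the score were then compared by the CPM of summed UMIs. In all, 6654 genes had at least 100 UMIs in the members, or as many expected there from the level in the other cells. Of these, 94 were at least 2-fold higher in the members (1.41%) and 138 at least 2-fold lower (2.07%), and the median log2 ratio over all 6654 genes was 0.02. Of the 94 higher genes, 94 were above 0 in both barcode sets and 69 were at least 2-fold higher in both, and of the 138 lower genes 108 were at least 2-fold lower in both. The leading 20 higher and 10 lower genes, ranked by the bound of the interval nearest to 0, are described below, apart from a gene not reported here.

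**Figure D2:**
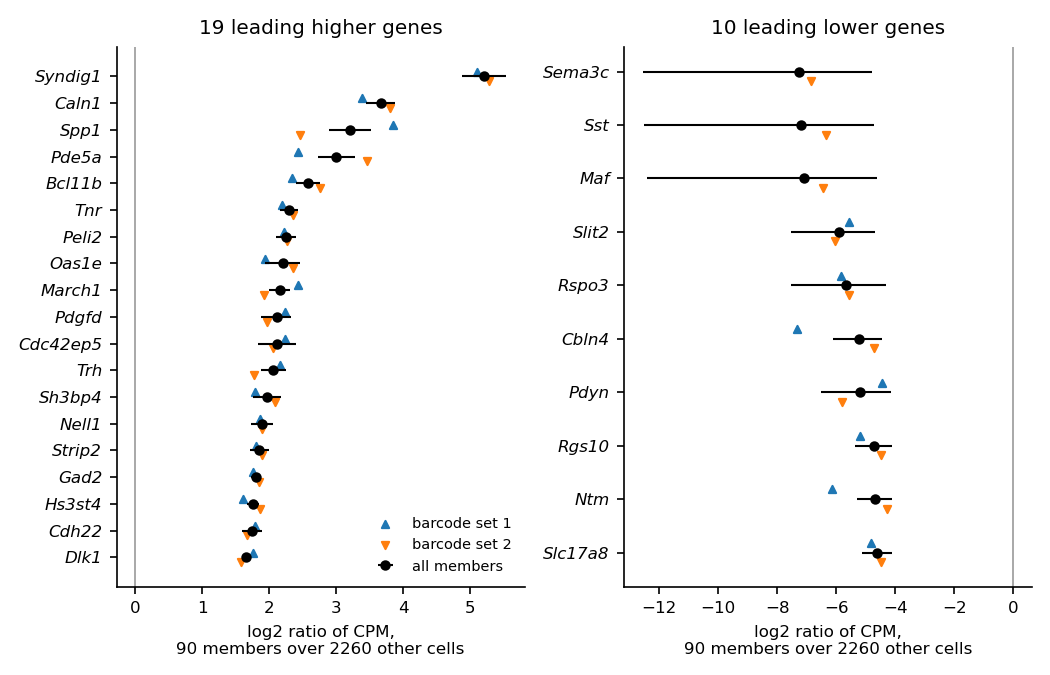
Log2 ratio of CPM of the 90 members over the 2260 other cells for 19 of the leading higher genes and the 10 leading lower genes, with exact 95% counting intervals (black) and the ratio within barcode set 1 (blue) and set 2 (orange). Ratios ran from 1.65 (*Dlk1*) to 5.20 (*Syndig1*) among higher genes and from −4.61 (*Slc17a8*) to −7.26 (*Sema3c*) among lower genes; a set with 0 UMIs in the members has no symbol.

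*Syndig1* and *Caln1* headed the list. *Syndig1* (chromosome 2, 149829211 to 150004392 on the plus strand, mm10) encodes a synaptic membrane protein that interacts with AMPA receptors. It was at 37.8 CPM (32.7 to 43.6) in the members and 1.03 CPM (0.861 to 1.22) in the other cells, a log2 ratio of 5.20 (4.88 to 5.53). Single members ran from 0 to 267 CPM with a median of 16.3 CPM, and the median of the other cells was 0. With each cell thinned to 20000 UMIs, 46.6% of members and 2.13% of other cells held a *Syndig1* UMI, against 0% in the cluster with the lowest share. *Caln1* (chromosome 5, 130369455 to 130847412, plus strand) encodes calneuron, a neuronal calcium-binding protein, and was at 51.1 CPM (45.0 to 57.7) and 4.04 CPM (3.70 to 4.40), a log2 ratio of 3.66 (3.44 to 3.88). Members ranged from 0 to 318 CPM with a median of 18.6 CPM. Both genes were at 0 in a substantial part of the members (35 and 36 of 90 cells), so the groups overlapped.

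The promoters of this pair are shown because the pair had the largest ratios and both were higher in the same cluster of members. They are RefSeq sequences of GRCm38.p6, the same assembly as mm10, of 300 bases from 250 before to 50 after the RefSeq start, 5′ to 3′ on the plus strand (chr2:149830533-149830832 and chr5:130369208-130369507). For *Syndig1* this start lies inside the GENCODE gene given above, downstream of its first base, so the window does not precede that base. Capitals mark ACAAT or its reverse complement ATTGT, the core letters bound by SOX factors.
Syndig1: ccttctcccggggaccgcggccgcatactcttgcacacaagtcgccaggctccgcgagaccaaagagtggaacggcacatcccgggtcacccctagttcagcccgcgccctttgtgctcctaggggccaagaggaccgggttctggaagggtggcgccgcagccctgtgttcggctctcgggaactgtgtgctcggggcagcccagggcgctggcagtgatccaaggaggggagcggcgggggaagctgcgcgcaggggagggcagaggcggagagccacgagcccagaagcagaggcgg
Caln1: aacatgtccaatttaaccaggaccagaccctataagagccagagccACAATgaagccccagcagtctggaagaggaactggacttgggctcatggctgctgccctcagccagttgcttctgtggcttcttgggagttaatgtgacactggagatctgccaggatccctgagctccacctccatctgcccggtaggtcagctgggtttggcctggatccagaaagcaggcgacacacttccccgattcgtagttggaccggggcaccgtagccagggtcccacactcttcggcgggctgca
The search found 0 matches in the first and 1 in the second, 204 bases before the RefSeq start. Over both strands, 31.0% of all 32851 promoters in the table held these letters. Among the leading higher genes 17 had a promoter there, and 2 of these held the letters (*Caln1* and *Cdc42ep5*, 11.8%). A match is a run of letters and was not tied to binding in these data.

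Transcription and signalling proteins were encoded by several others of the leading 20. *Bcl11b*, which encodes the zinc finger factor CTIP2, was at 66.8 CPM (59.9 to 74.3) and 11.2 CPM, a log2 ratio of 2.58. It was detected in 84 of 90 members and in 29.9% of the other cells, from 0 to 273 CPM with a median of 56.8 CPM, while the median of the other cells was 0. *Peli2*, an E3 ubiquitin ligase of innate immune signalling, was at 87.7 and 18.5 CPM (log2 ratio 2.25, with a UMI in 86 members and 42.9% of other cells), and *March1*, a membrane-associated E3 ubiquitin ligase, at 78.4 and 17.6 CPM (2.16, 79 members and 47.1%). *Pde5a*, the cGMP-specific phosphodiesterase, was at 30.4 and 3.79 CPM (3.00, 62 members and 13.9%), and *Pdgfd*, a platelet-derived growth factor, at 38.6 and 8.98 CPM (2.11, 71 members and 28.8%). *Oas1e* belongs to a family of near-identical oligoadenylate synthetase genes, and its 28.8 and 6.28 CPM (2.20) may hold reads of a relative.

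The remaining leading genes encode products of several kinds and belong to no single list. *Tnr*, which encodes tenascin-R of perineuronal nets, was at 105 CPM (96.5 to 115) and 21.5 CPM, with a median of 84.9 CPM in single members and 14.4 CPM in other cells. *Hs3st4*, a heparan sulfate 3-O-sulfotransferase, was at 225 and 66.2 CPM and was detected in all 90 members, from 43.7 to 372 CPM. *Spp1*, encoding the secreted protein osteopontin, was at 23.7 and 2.57 CPM, yet only 28 members held a UMI and 1 reached 500.1 CPM. The cadherin *Cdh22* was at 80.2 and 24.0 CPM, *Nell1*, a secreted protein with EGF-like repeats, at 63.1 and 17.0 CPM, and *Dlk1*, a transmembrane protein of the Notch ligand type, at 741 and 236 CPM. *Dlk1* was at 1129 CPM in the members of the score cluster but at 203 CPM in those of the Crym Trh cluster. *Strip2* (90.1 and 25.0 CPM), *Sh3bp4* (41.6 and 10.6 CPM) and *Cdc42ep5* (25.4 and 5.87 CPM), whose product binds the small GTPase CDC42, were the others outside the transmitter systems. *Cdc42ep5* was also at 23.7 CPM in the rest of the Kit Hcrtr1 Phlda1 cluster, and the interval of its log2 ratio to those cells (−0.19 to 0.39) included 0.

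GABA synthesis genes differed between the isoforms. *Gad2*, which encodes the smaller glutamate decarboxylase isoform, was at 360.3 CPM (344 to 377) in the members and 104 CPM (102 to 105) elsewhere, a log2 ratio of 1.80 (1.73 to 1.87). Single members ranged from 0 to 1219 CPM with a median of 276 CPM, and the median of other cells was 37.8 CPM. *Gad1*, the other decarboxylase, was at 44.9 and 47.9 CPM, and its interval (−0.29 to 0.10) included 0. The vesicular GABA transporter *Slc32a1* was at 2.76 CPM (1.51 to 4.63) and 0.521 CPM, and all of it came from 2 members. The GABA-degrading enzymes *Abat* (479.6 and 415 CPM) and *Aldh5a1* (52.2 and 48.5 CPM) were within 2-fold.

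Glutamate packaging went the opposite way. *Slc17a8* was at 6.70 CPM (4.64 to 9.37) in the members and 164 CPM (162 to 166) in the other cells, a log2 ratio of −4.61 (−5.14 to −4.13). Among single members 65 were at 0 and the highest reached 44.0 CPM, while the median of the other cells was 51.7 CPM.

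Most of the leading lower genes were close to absent from the members. *Sema3c*, a secreted guidance cue, was represented by 1 UMI in the members (0.197 CPM, 0.00499 to 1.10) and was at 30.1 CPM elsewhere. *Maf*, a bZIP transcription factor, and *Sst*, which encodes somatostatin, were also represented by 1 UMI each, against 27.0 and 29.2 CPM. *Slit2*, the secreted ligand of Robo receptors, had 5 UMIs in the members (0.986 CPM) and was at 59.0 CPM in other cells, whose median was 35.7 CPM. *Pdyn* (prodynorphin) was at 1.38 and 50.7 CPM, *Cbln4* (a secreted synaptic organizer) at 2.56 and 95.6 CPM, and *Rspo3* (a secreted Wnt signalling agonist) at 0.788 and 40.1 CPM. *Rgs10*, a regulator of G protein signalling, was at 4.53 and 119 CPM, and *Ntm*, the adhesion molecule neurotrimin, at 5.12 and 131 CPM with 73 of 90 members at 0. For *Sst* the other cells were themselves mostly at 0, with a UMI in 8.41% of them, so its level outside the members came from a minority. Several of these genes were scarce in the clusters most like the members as well. In the rest of the Crym Trh and Kit Hcrtr1 Phlda1 clusters *Sst* was at 1.00 and 0.562 CPM, *Rspo3* at 0.829 and 1.22 CPM and *Maf* at 1.48 and 2.06 CPM. *Slit2* was at 3.88 and 7.82 CPM there and *Rgs10* at 23.8 and 9.84 CPM, far below their levels in all other cells. The members were lower still in *Slit2* (intervals −3.64 to −0.70 and −4.63 to −1.74) and *Rgs10* (−3.06 to −1.79 and −1.81 to −0.49). The intervals of the log2 ratio of the members to either cluster included 0 for *Sst* and *Rspo3* (−2.09 to 1.52 for *Rspo3* against the Crym Trh cells), whereas *Sema3c* was at 16.5 and 10.7 CPM and *Cbln4* at 26.2 and 28.9 CPM in those cells.

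Among the lists of gene families, several held both higher and lower genes. Of 10 neuropeptide and secreted signal genes compared, *Trh* (thyrotropin-releasing hormone) was higher, at 54.6 CPM (48.4 to 61.4) and 13.1 CPM, and 5 were lower: *Pdyn*, *Sst*, *Cbln2* (9.66 and 65.5 CPM), *Cbln4* and the prohormone convertase *Pcsk1* (24.4 and 61.1 CPM). The rest of the Crym Trh cluster was at 56.3 CPM for *Trh*, and the members of the score cluster were at only 19.2 CPM. Of 4 factors compared that have been reported for rostral and dorsal subtypes, 2 were higher, among them *Pax5* (90.1 and 41.2 CPM). Of 3 factors reported for caudal, ventral and low-*Tph2* subtypes, *Nr2f2* (0.591 and 20.7 CPM) and *Maf* were lower. These factor lists were drawn up from these same data and are no independent evidence of position.

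The families of the score genes themselves did not follow them as families. Of 5 other intermediate filament genes compared, 0 were higher, and the neurofilaments *Nefl* (69.0 and 142 CPM) and *Nefm* (14.0 and 42.3 CPM) were lower. Among 12 genes of protein kinase C and diacylglycerol signalling, the classical isoform *Prkca* was higher, at 133 CPM (123 to 143) and 41.4 CPM, whereas *Rasgrp1*, a diacylglycerol-responsive exchange factor for Ras, was lower (28.0 and 106 CPM), as was the phospholipase *Plcb1* (1.77 and 20.4 CPM). Of 9 semaphorin, plexin and neuropilin genes compared, 0 were higher, and *Sema3c* and *Sema6d* (14.6 and 43.9 CPM) were lower. The axon guidance genes *Ntng1* (1.18 and 30.5 CPM) and *Epha5* (53.2 and 112 CPM) were lower together with *Slit2*, among 8 compared. Of the 2 other TAFA genes and the 9 RBMS and ELAV-like genes compared, 0 differed by 2-fold.

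Of the 4 orexin and histamine receptors compared, 2 were higher, 1 was lower and 1 was within 2-fold. The orexin receptor *Hcrtr1* was at 175 CPM (163 to 187) and 62.9 CPM, with 135 CPM in the rest of the cluster named for it, and the histamine receptor *Hrh1* at 46.3 and 22.1 CPM, whereas the second orexin receptor *Hcrtr2* was lower, at 7.49 and 26.0 CPM. *Htr1b*, an inhibitory serotonin receptor found on serotonergic axons, was at 144 and 66.1 CPM, and the somatic autoreceptor *Htr1a* at 115 and 88.4 CPM, within 2-fold. Among other G protein-coupled receptors, the inhibitory adrenergic receptor *Adra2a* (29.4 and 14.4 CPM) was higher, and the excitatory adrenergic receptor *Adra1b* (73.3 and 169 CPM), *Npy2r* (0.788 and 20.9 CPM) and *Gabbr2* (14.6 and 36.6 CPM) lower.

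Among ion channels, most transcripts were within 2-fold. The GABA-A receptor subunits *Gabrg3* (1.58 and 29.8 CPM) and *Gabrq* (2.96 and 21.2 CPM) were lower among 9 compared. Of 10 ionotropic glutamate receptor subunits, *Gria1* was higher (73.1 and 34.2 CPM) and *Grin2a* lower (15.0 and 37.1 CPM). Of 16 potassium channel genes, *Kcnn3*, a small-conductance calcium-activated channel, was higher (80.6 and 36.2 CPM), and *Kcnc2* (1.77 and 20.3 CPM), *Kcnd2* (47.1 and 96.6 CPM) and *Kcnq3* (33.3 and 82.2 CPM) were lower. Of 18 calcium, sodium, HCN and TRP channel genes, *Cacna1e* alone differed by 2-fold (65.4 and 144 CPM).

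Adhesion genes went in both directions. Of 13 cadherins and protocadherins, *Cdh13* (551 and 269 CPM), *Cdh22* and *Pcdh18* (19.9 and 6.97 CPM) were higher and 6 were lower, among them *Cdh8* (0.394 and 20.8 CPM), *Pcdh11x* (1.97 and 35.2 CPM) and *Pcdh7* (12.0 and 75.6 CPM). Of 26 synaptic adhesion genes, *Nrxn3* (267 and 129 CPM), *Flrt2* (54.4 and 21.8 CPM) and *Slitrk1* (58.0 and 20.7 CPM) were higher. *Tenm3* (7.88 and 20.3 CPM) and *Slitrk5* (39.2 and 80.4 CPM) were lower. In the members of the Crym Trh cluster *Nrxn3* was at 101 CPM, below the other cells (log2 ratio −0.35) but above the rest of that cluster (22.1 CPM). Among heparan sulfate genes *Gpc5* (3.75 and 21.6 CPM) and *Sdc2* (20.9 and 44.6 CPM) were lower, opposite to *Hs3st4*. *Calb2* (3.94 and 68.4 CPM), *S100b* (2.76 and 20.6 CPM) and *Nos1* (0.591 and 24.6 CPM) were lower among 11 calcium-binding and nitric oxide genes, and the receptor tyrosine kinases *Ret* (3.75 and 37.0 CPM) and *Erbb4* (10.4 and 21.9 CPM) among 12 compared. Of 7 immediate early genes and 10 heat shock genes, 0 differed by 2-fold, with *Fos* at 87.3 and 95.3 CPM.

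**Figure D3:**
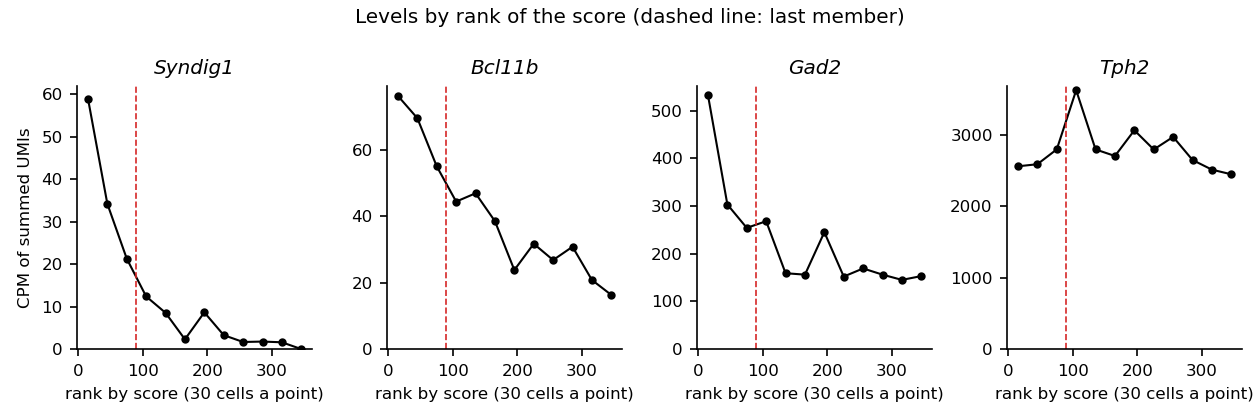
CPM of summed UMIs of *Syndig1*, *Bcl11b*, *Gad2* and *Tph2* in successive groups of 30 cells ranked by the score, with the last member as a dashed line. *Syndig1* went from 59.0 to 21.3 CPM within the members and 12.4 CPM in the next 30 cells, with no step at the limit, and *Tph2* stayed between 2444 and 3620.1 CPM.

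The differences were graded along the score. In the highest 30 cells *Syndig1* was at 59.0 CPM, in the next 30 at 34.2 and in the last 30 members at 21.3, and the first 30 cells outside the set were still at 12.4 CPM. *Bcl11b* followed the same order, at 76.2, 69.5, 55.0 and 44.4 CPM, and *Gad2* was at 532, 303, 254 and 268 CPM. *Hs3st4* had no such gradient (208, 232, 232 and 219 CPM), nor did *Trh* (62.7, 66.1, 34.9 and 77.0 CPM). *Slc17a8* was at 7.99, 5.70 and 6.51 CPM within the members, 34.4 CPM in the 30 cells that followed and 4.87 to 16.5 CPM in the later groups up to rank 360. The first group held 24 cells of the score cluster and the third held 8, so the gradient of *Syndig1* and *Gad2* runs along with the change in cluster.

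To see what separated the members from the cells most like them, they were compared with the remaining cells of the Crym Trh cluster (407 cells) and of the Kit Hcrtr1 Phlda1 cluster (319 cells). Against the first, 89 of 6634 genes were at least 2-fold higher (1.34%) and 64 lower (0.965%). *Syndig1* was at 0.480 CPM and *Caln1* at 0.742 CPM in those cells, giving log2 ratios of 6.30 (5.43 to 7.33) and 6.10 (5.40 to 6.91). *Nrxn3*, a presynaptic neurexin, was at 22.1 CPM (log2 ratio 3.59), *Dlk1* at 80.6 CPM (3.20) and the zinc finger gene *Tshz2* at 2.97 CPM (3.33). For *Tshz2* the ratio to all other cells was −0.96 in barcode set 1 and 0.82 in set 2. *March1*, *Spp1*, *Zfp804a* and *Thy1* had ratios between 2.28 and 2.75. *Trh* did not differ from these cells beyond counting error (log2 ratio −0.05, −0.24 to 0.14). That ratio averages members on either side of the 56.3 CPM of these cells, at 19.2 CPM in the score cluster and 105 CPM in the Crym Trh cluster. *Slc17a8*, at 9.43 CPM in these cells, was low in them and in the members.

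Against the rest of the Kit Hcrtr1 Phlda1 cluster, 80 of 6582 genes were higher (1.22%) and 78 lower (1.19%). Here *Trh* had the largest ratio (log2 ratio 5.19, 4.66 to 5.76), ahead of *Syndig1* (2.34 CPM, 4.01), *Nell1* (5.99 CPM, 3.40) and *Caln1* (5.85 CPM, 3.12). *Vwc2*, a secreted antagonist of BMP signalling, was at 16.5 CPM (2.86). *Nrxn3*, *Spp1*, *Pde5a* and *Bcl11b* had ratios between 2.40 and 3.07. *Gad2*, at 224 CPM, differed less (0.69), as did *Hs3st4* at 164 CPM (0.45). *Syndig1*, *Caln1*, *Nrxn3* and *Spp1* were among the leading 10 in both comparisons.

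**Figure D4:**
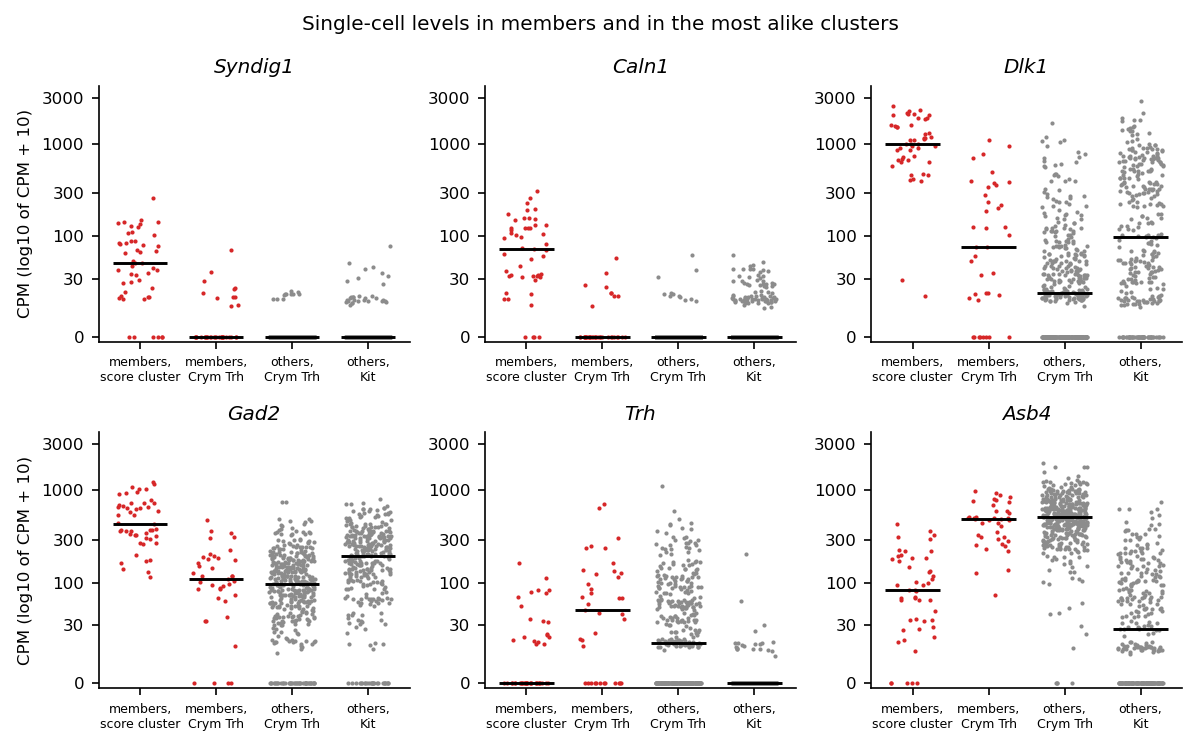
Level of 6 genes in single cells (points; CPM on a log10 axis of CPM + 10; bars are medians) for the 49 members in the cluster led by the score genes, the 39 members in the Crym Trh cluster, and the other cells of the Crym Trh (407) and Kit Hcrtr1 Phlda1 (319) clusters. Medians of *Dlk1* were 999.9 and 76.2 CPM in the 2 kinds of members, and those of *Trh* 0 and 47.5 CPM.

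The members of the 2 main clusters differed from each other, a division that was made after the values were seen, depends on the clustering run as given above and is described without claim. The 49 members of the score cluster (16 from set 1, 33 from set 2) had a median score of 2.30 and 59531 UMIs per cell, and the 39 of the Crym Trh cluster (20 and 19) 1.89 and 54741 UMIs. Of 4978 genes, 77 were at least 2-fold higher in the former (1.55%) and 59 in the latter (1.19%). *Caln1* was at 84.0 CPM (73.8 to 95.2) in the former and 6.71 CPM (3.67 to 11.3) in the latter, with a UMI in 45 of 49 and 9 of 39 cells. *Syndig1* was at 59.7 and 8.15 CPM, with a UMI in 43 of 49 and 11 of 39 cells. *Dlk1* was at 1129 CPM (1090.4 to 1168) and 203 CPM (184 to 223), and the interval of *Gad2* was 500.4 to 553 CPM and 118 to 149 CPM, with medians of 442 and 112 CPM in single cells. The higher *Gad2* and *Dlk1* of the whole set therefore lay mostly with the first kind, and the Crym Trh members differed little from all cells outside the set in either (log2 ratios 0.36 and −0.22). Beside the rest of their own cluster, these members were higher in *Dlk1* (203 and 80.6 CPM) and near it in *Gad2* (133 and 121 CPM).

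Further genes followed the same division. *Nrxn3* (387 and 101 CPM), the receptor tyrosine kinase *Kit* (58.3 and 14.4 CPM), the potassium channel *Kcnc4* (58.3 and 11.0 CPM) and *Fndc5* (143 and 30.7 CPM) were higher in the score cluster members. The complexin *Cplx1* (331 and 108 CPM) and *Thy1* (102 and 28.8 CPM) were as well. In the other direction, *Trh* was at 19.2 CPM (14.5 to 24.9) in the score cluster members and 105 CPM (91.6 to 119.9) in the Crym Trh members, with a UMI in 20 of 49 and 27 of 39 cells. *Asb4*, a substrate receptor of a ubiquitin ligase, was at 113 and 482 CPM, *Car10* at 21.3 and 107 CPM, the myosin *Myh7* at 12.3 and 82.5 CPM, *Crip1* at 21.6 and 95.9 CPM, and the proprotein convertase *Pcsk5* at 7.54 and 37.9 CPM. The rest of the Crym Trh cluster was at 530.3 CPM for *Asb4*, 119 for *Crip1*, 114 for *Myh7*, 49.6 for *Pcsk5* and 182 for *Car10*, all above its members, and at 56.3 CPM for *Trh*, below them.

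Both kinds of members had in common several genes outside the score. *Bcl11b* was at 63.8 and 72.9 CPM (log2 ratio between kinds −0.19, −0.51 to 0.13), *Hs3st4* at 227 and 221 CPM (0.04, −0.13 to 0.22), *Pdgfd* at 40.5 and 36.4 CPM (0.15, −0.28 to 0.59), *Nell1* at 60.4 and 68.6 CPM and *Strip2* at 86.8 and 94.9 CPM. *Slc17a8* was low in both, at 5.83 and 8.15 CPM. Counted within the Crym Trh members alone, *Bcl11b* had a log2 ratio of 2.70 to cells outside the set and *Syndig1* of 2.99. *Pde5a* was the one leading higher gene apart from *Trh* that was higher in the Crym Trh members by more than 2-fold (47.0 and 18.9 CPM).

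**Figure D5:**
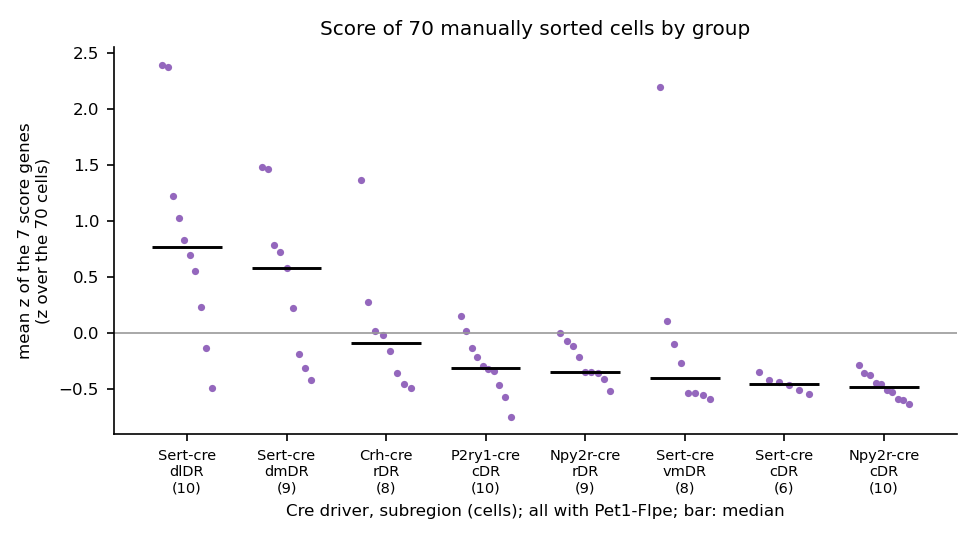
Mean z of the same 7 genes in the 70 manually sorted cells (points, ordered by value within a group) by Cre driver and subregion, with z taken over these 70 cells and bars at the medians. The dlDR and dmDR groups have medians of 0.77 and 0.58, and the medians of the other 6 groups are below 0.

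The manually sorted cells carry a dissected subregion, which the 10X cells lack. They are other cells, scored on the same 7 genes, and do not give the origin of the members. Their libraries were full-length and of single cells, with 756872 to 7664103 reads on genes per cell, and the labels name no animal for them, so each group counts as 1 sample and the groups are not tested. The mean z of the 7 genes, taken over the 70 cells, was highest in the Sert-cre cells of the dorsolateral DR (dlDR, 10 cells), with a median of 0.77 and a range of −0.49 to 2.40. The dorsomedial cells (dmDR, 9 cells) had a median of 0.58 (−0.42 to 1.48). Medians were below 0 in the ventromedial (vmDR, −0.41) and caudal (cDR, −0.46) Sert-cre groups, in the Npy2r-cre groups (−0.35 rostral, −0.49 caudal), in P2ry1-cre cells of the cDR (−0.31) and in Crh-cre cells of the rostral DR (−0.09). In the caudal and Npy2r-cre groups 0 cells scored above 1, against 4 of 10 in the dlDR. The ranges of all groups overlapped with those of the dlDR and dmDR. Age differed between groups. Cells were from postnatal days 63 and 90 in the dlDR, dmDR and vmDR, and from day 63 alone in the Sert-cre cDR. They were from days 77 and 87 in the Npy2r-cre groups, 62 to 74 in P2ry1-cre cells and 83 and 119 in Crh-cre cells.

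Single manual cells with high scores differed in the genes that divided the 10X members. The cell of the vmDR with the highest score (2.20) had *Syndig1* at 248 CPM (reads scaled to 1000000 per cell), *Caln1* at 257, *Gad2* at 940.2 and *Dlk1* at 1135, and 0 for *Trh*. A dmDR cell (1.48) had *Syndig1* at 291 CPM, *Dlk1* at 1973 and *Trh* at 18.0, and the highest Crh-cre cell (1.37) had *Syndig1* at 86.1 CPM, *Dlk1* at 1387 and *Trh* at 0. Another dmDR cell (1.47) instead had *Syndig1* at 0, *Dlk1* at 0, *Trh* at 296 CPM and *Asb4* at 1495 CPM. In the dlDR the highest cell (2.40) had *Syndig1* at 53.0 CPM, *Caln1* at 43.7 CPM, *Dlk1* at 95.8 CPM, *Trh* at 26.5 CPM, *Myh7* at 51.2 CPM and *Asb4* at 1103 CPM, so it held genes of both kinds of members. The next (2.38) had *Syndig1* at 6.79 CPM, *Trh* at 76.4 CPM and *Asb4* at 744 CPM. The other 2 dlDR cells above 1 (1.22 and 1.03) had *Trh* at 642 and 437 CPM, *Asb4* at 1287 and 1632 CPM and *Syndig1* at 12.7 and 0 CPM. *Slc17a8* was at 0 in each of these cells except the second dmDR cell, at 0.29 CPM, and the dlDR cell that scored 1.22, at 5.72 CPM.

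Within the 2 dorsal groups, the genes named from the 10X table were related to the score in the same direction. Across the 10 dlDR cells the log-scaled level of 17 of the 20 higher genes had a correlation above 0 with the score (median r 0.47), against 52.1% of 6406 genes with reads. Across the 9 dmDR cells this held for 18 of 20 (median r 0.53), against 44.9% of 6405 genes. Of the 10 lower genes, 9 had reads in each group, and all 9 had a correlation below 0 in both. The exceptions among the higher genes were *Cdc42ep5*, *Dlk1* and *Cdh22* in the dlDR and *Tnr* and *Nell1* in the dmDR. *Bcl11b* had an r of 0.67 and 0.91 in the 2 groups. Each of these groups holds cells from mice at postnatal day 63 and at day 90, and cells of the same age may share an animal, so these are descriptions over few cells with no p-value.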

How the data were processed

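The authors mapped the 10X reads to mm10 with Cell Ranger 3.0.2 and deposited raw UMI counts of the genes and cells that they kept. In R 3.5.3 they had removed rarely detected genes and cells with few genes, low *Fev*, or glial or mitochondrial transcripts, which limits what other cell types the table can hold. Manually sorted cells were mapped with STAR 2.5.4, and the authors deposited read counts without normalization. Here both tables of counts were scaled to CPM per cell or per group of cells. Members and gene lists were chosen with earlier results of these data known.

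Clusters were made in Seurat 5.3.0 (R 4.3.3) after the study's settings for 2000 variable genes, components 1 to 5 and 8 to 50 and Louvain at a resolution of 0.9. The number of neighbours was 20, which the study does not state. Exact principal components took the place of the approximate ones that Seurat computes by default. A cluster was named for the fixed marker genes with the highest mean z in it. Ratios of summed UMIs have exact conditional binomial intervals, levels Poisson intervals and shares Clopper-Pearson intervals. Named genes are those of the lists, and, without the 7 score genes and the sex-linked list, the 20 with the highest lower bound and the 10 with the lowest upper bound of the log2 ratio to all other cells, with at least 100 UMIs in the members (or expected there, for lower genes), a UMI in 30% of members for higher genes and 2-fold in each barcode set. The 10 highest against each alike cluster follow the same filters, and genes that divide the members were picked after their values were seen. Ratios of a gene at 0 in the alternatives used a floor of 3 counts, while intervals of levels are two-sided and reach somewhat higher. Doublets were called with Scrublet in scanpy 1.11.5 at an expected rate of 5%. On simulated data of 17231 genes with 200 changed, 200 had the right direction and 187 an interval that held the true value. The simulated totals followed the Poisson model that the intervals assume, without variation between cells or animals, so they check the calculation only. Positions are from GENCODE vM21. Other computation used Python 3.11.15, numpy 2.4.6, scipy 1.17.1, pandas 2.3.3 and matplotlib 3.10.9. Alternatives covered the number of members, depth, filters, barcode set, doublets, score genes and clustering. Several genes chosen this way are left out of the text but stay in its totals. Tissue images, recordings and cells of earlier studies were not used here.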

Additional observations from a re-analysis of the deposited data

Results flagged for a closer look

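Among the 8 groups of manually sorted cells, 2 held a cell whose score stood apart from the rest of its group by Dixon's criterion (chance flags about 1 in 20 groups). In the Sert-cre vmDR group the highest cell scored 2.20 and the next 0.11, a gap of 0.75 of the group's range against a critical value of 0.526. In the Crh-cre rostral group the highest cell scored 1.37 and the next 0.28, a gap of 0.58. The criterion was applied to single cells and to the genes that make up the score, so it describes these cells only.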

How the results depend on the processing

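No paired analysis was possible because the 10X table is counted as 1 sample with no test to block, and replicate numbers of the manual groups name single cells in groups that were not tested. Ratios within each barcode set are given as descriptions. The counts of 94 higher and 138 lower genes became 45 and 45 when cells were thinned to 20000 UMIs, 45 and 44 when members were also chosen again, 179 and 336 with at least 30 UMIs, 966 and 1725 with at least 1 UMI, and 48 and 45 in barcode set 1 alone, settings that by construction change how many genes pass the UMI minimum. They were within 1.5 times of the main counts with 60 or 120 members, the mean of single cells, barcode set 2 alone (71 and 92), no doublets, the score cluster as members, or any score gene left out. Of the 29 leading genes reported, under the alternatives chosen at the start, 463 of 464 values stayed at least 2-fold, the exception being *Trh* with the score cluster in place of the members (0.21). The values within a single barcode set are among these and could not fall below 2-fold, because the genes were chosen for 2-fold in each set. Sizes moved more, since over all alternatives 394 of 522 values of these genes lay within the counting interval of the value reported, and *Spp1*, for example, was at 3.85 in set 1 and 2.46 in set 2. Other memberships and random starts were added after seeing the data. With only the members of the Crym Trh cluster, the ratios of *Dlk1* (−0.22) and *Nrxn3* (−0.35) to all cells outside the set changed sign. Both genes were still higher there than in the rest of that cluster (203 and 80.6 CPM, and 101 and 22.1 CPM). Without *Sst*, also added, the log2 ratio of the summed markers of other GABA neurons went from −2.78 to 1.11. The largest cluster share of 49 members became 75 at a resolution of 1.5 and 75 with the approximate components at default seeds. The dlDR median of 0.77 stayed between 0.49 and 0.94, the highest of the groups, when a score gene was left out, and was 0.83 on another scale. Depth limits the lower genes most, with an interval of −12.56 to −4.78 for the log2 ratio of *Sema3c*, and animals cannot be told apart.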
